A study of Mus musculus with 2 samples.

Results

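G1/S cancer cells were the Lewis lung carcinoma (LLC) cells with the most RNA of 6 genes that are switched on as a cell leaves G1 and begins to copy its DNA. They were chosen by measured values: the unique molecular identifier (UMI) counts of Ung, Cdc6, Uhrf1, Mcm5, Mcm6 and Gins2 in each cell were summed and divided by the cell's total, and the top 10% of the cancer cells of both libraries pooled were kept. Cells in the top 10% of the matching sum of 6 mitotic genes (Cdc20, Cenpf, Plk1, Ccnb2, Hmmr and Cenpa) were left out. A cancer cell was a barcode with at least 5000 UMIs, under 10% mitochondrial UMIs, at least 1000 CPM (UMIs per 1000000 UMIs of the cell or group) of Rhox5, Krt8, Krt18 and Hmga2 together, and under 300 CPM of the immune genes Tyrobp, Fcer1g and Ctss. This gave 1383 G1/S cells, 9.73% of 14210 cancer cells among 40638 barcodes in all.

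A cell commits to division when cyclin D and cyclin E kinases inactivate the Rb proteins and free the E2F transcription factors. E2F then drives the genes for licensing origins, firing them, making deoxynucleotides and packing the new DNA into chromatin. Mitotic genes such as Plk1 and Cdc20 follow later, in G2 and mitosis, and carry a different promoter element.

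The tumors came from C57BL/6 mice that were Gucy1b1 flox/flox (CT, sGC Ctr) or Cspg4-CreERT2::Gucyc1b1 flox/flox (KO, sGC ∆PC; the label's spelling of Gucy1b1), in which the Cspg4 promoter drives a tamoxifen-dependent Cre in pericytes. Gucy1b1 encodes the β1 subunit of soluble guanylate cyclase (sGC), the nitric oxide receptor. All mice were given tamoxifen, in 5 doses, when 4 weeks old. LLC cells were placed under the skin when they were 8 weeks old, and the tumors were taken after another 2 weeks. LLC is a mouse lung carcinoma line that was injected, so the cancer cells carried neither the Cre nor the floxed allele, and the genotypes name the host. There was 1 library for each genotype, made from 3 pooled tumors, so differences between mice cannot be seen, genotype and library cannot be told apart, and no test between genotypes was possible. All intervals below are exact, at 95%, and cover counting error only.

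The CT library held 15007 barcodes and 487859656 UMIs, and the KO library 25631 barcodes and 436352742 UMIs. The median cancer cell had 52847.5 UMIs in CT and 21024 in KO, so the libraries differed in depth. They shared 131 barcode sequences, of which 18 were called cancer cells in both and 1 was a G1/S cell in both. In the CT library 622 G1/S cells were found, with a median of 62689 UMIs and 40021156 UMIs in all. The KO library held 761, with a median of 16244 UMIs and 26998555 UMIs in all. A median G1/S cell carried 40 UMIs of the 6 genes in CT and 10 in KO, and the fewest were 4 and 3.

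Gucy1b1, the deleted gene, was all but absent from the G1/S cells. There was 1 UMI in the 622 cells of CT and none in the 761 cells of KO, and 0 of 761 cells allows a share of up to 0.394% of cells with a UMI, which is no limit on the cells that express the gene. The limit of 3 counts corresponds to 0.0750 CPM in CT and 0.111 CPM in KO. These cells therefore cannot check the deletion, which was aimed at pericytes.

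The share of G1/S cells was close in the 2 libraries. It was 10.2% of cancer cells in CT (interval 9.44 to 10.97) and 9.39% in KO (8.76 to 10.0). Since the limit was set on the pooled cells, these shares are tied to each other. Their order depended on how the score was made: with every cell thinned to 5000 UMIs before scoring the shares were 9.88% and 9.97%, and with the top 20% kept they were 17.7% in CT and 20.1% in KO.

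**Figure D1:**
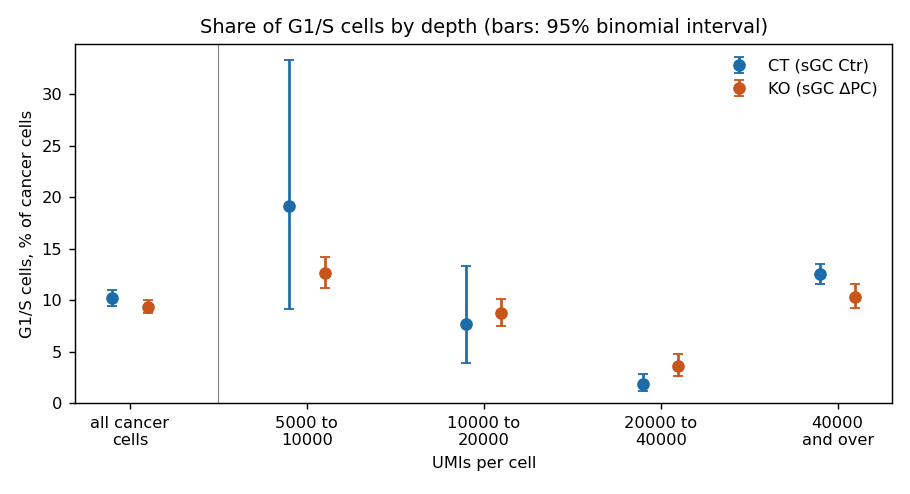
The vertical axis is the percentage of cancer cells that were G1/S cells, for all cancer cells and for 4 classes of UMIs per cell on the horizontal axis, with CT in blue and KO in orange. Points are the measured shares and bars are binomial intervals (95%); in both libraries the class of 20000 to 40000 UMIs lies lowest.

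The share varied more with depth than between libraries. Among cells of 40000 UMIs and over it was 12.5% in CT (577 of 4605 cells, 11.6 to 13.5) and 10.3% in KO (289 of 2793 cells, 9.24 to 11.5). Between 20000 and 40000 UMIs it was lowest, 1.91% in CT and 3.62% in KO, so the order of the libraries was the other way. Below 10000 UMIs it was 12.6% in KO, where 251 cells or 33.0% of its G1/S cells lie, and 19.1% in CT, on 9 cells. These shallow KO cells met the limit with a median of 4 UMIs of the 6 genes, and 26.7% of them showed no more than 2 of the genes. Depth and genotype cannot be told apart in the pooled share. The intervals are over cells of 1 library each, which are not replicates, so no difference between the genotypes is read from them.

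The label was checked with genes that the rule did not use. The genes for origin licensing, origin firing and DNA polymerases, summed for each cell, were above the median of the other cancer cells in 100% of the G1/S cells of CT and 97.9% of those of KO. They exceeded the 90th percentile of the others in 93.2% and 73.3%. Within KO this last share was 92.4% in cells of 40000 UMIs and over and 55.8% in those of 5000 to 10000 UMIs. The summed level was higher than in the other cancer cells by 1.33 on the log2 scale in CT and by 1.18 in KO. Rhox5, Krt8, Krt18 and Hmga2 together reached 1969 CPM in CT and 1896 CPM in KO in the G1/S cells. In the other cancer cells they reached 1889 and 1791 CPM. The rule for a cancer cell set a lower limit on these genes in both groups, so the values do not check the label. Since the cells were picked on their own expression, what follows compares them with the other cancer cells as a description, without a test.

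The 6 genes of the rule chose the cells, and their values are given as a description only. The limit was 446.124 CPM, the lowest member held 446.139 CPM and the highest cell outside 446.122 CPM, so there was no gap at the limit. Over all members the sum was 643 CPM in each library, and in the other cancer cells it was 145 CPM in CT and 160 CPM in KO. In granulocytes, which do not divide once mature, the sum was 78.4 CPM in CT and 137 CPM in KO. The part of free RNA or joined cells in this level was not tested.

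Cdc6, which loads the replicative helicase onto origins, had the largest ratio of the 6, at 49.7 CPM against 4.59 in the other cells of CT and 47.4 against 5.73 in KO. Ung, the uracil-DNA glycosylase, stood at 48.0 against 5.62 CPM in CT and 40.9 against 6.30 in KO. Uhrf1, which brings the maintenance DNA methyltransferase to new DNA, stood at 152 against 25.3 CPM in CT and 158 against 29.6 in KO. The helicase subunits Mcm5 and Mcm6 and the GINS subunit Gins2 had smaller ratios. The log2 ratios were 2.26, 1.64 and 1.76 in CT and 2.05, 1.62 and 1.66 in KO, in that order.

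The shares of cells with a UMI of Ung and Mcm6 describe genes that chose the cells, too. At 5000 UMIs per cell, Ung was found in 21.4% of G1/S cells and 2.44% of other cancer cells in CT, and in 17.9% and 3.08% in KO. Without thinning the G1/S shares were 79.6% in CT and 50.5% in KO. Granulocytes, at a median of 2115.5 UMIs in CT and 2324 in KO, showed Ung in 0.833% and 0.937% of cells. Mcm6 was broader, in 60.3% of thinned G1/S cells and 24.5% of the others in CT and in 68.3% and 26.3% in KO, with 7.78% and 9.60% of granulocytes.

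Promoter sequence was set beside these values, because E2F sites are known to lie just upstream of such genes. Each line below gives the RefSeq promoter strand (GRCm38.p6) 5′ to 3′ around the matches to TTTNGCGC or TTTCCCGC in the 250 bases before the gene start, with the matched bases in capitals. All stretches found among the 18 genes looked up that had a promoter in the table are shown, 7 of which held a match. Cdc6, Uhrf1, Mcm5 and Mcm6 define the cells, and Hells, Dtl and Ncapg2 were among the genes with the largest ratios outside the rule.
Cdc6, chr11:98907983-98908050, plus strand: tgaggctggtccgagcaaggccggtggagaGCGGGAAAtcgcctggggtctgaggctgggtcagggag
Uhrf1, chr17:56304098-56304165, plus strand: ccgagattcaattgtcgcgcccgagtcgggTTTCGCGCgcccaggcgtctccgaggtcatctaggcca
Mcm5, chr8:75109326-75109397, plus strand: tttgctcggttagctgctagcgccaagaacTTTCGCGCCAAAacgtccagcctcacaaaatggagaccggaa
Mcm6, chr1:128359774-128359845, minus strand: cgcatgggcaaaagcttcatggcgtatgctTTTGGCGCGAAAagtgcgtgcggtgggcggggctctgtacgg
Mcm6, nearer to the gene start, chr1:128359715-128359782, minus strand: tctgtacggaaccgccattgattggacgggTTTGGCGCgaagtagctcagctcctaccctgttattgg
Hells, chr19:38930898-38930965, plus strand: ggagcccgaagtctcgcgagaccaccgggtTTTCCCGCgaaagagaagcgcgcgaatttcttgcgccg
Dtl, chr1:191575545-191575582, minus strand: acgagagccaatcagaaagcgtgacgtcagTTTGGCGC
Ncapg2, chr12:116405186-116405224, plus strand: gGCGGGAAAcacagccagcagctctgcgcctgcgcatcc
Ncapg2, nearer to the gene start, chr12:116405202-116405269, plus strand: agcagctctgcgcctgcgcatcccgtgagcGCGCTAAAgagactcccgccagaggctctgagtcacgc
In Mcm5 and the first stretch of Mcm6 the match on one strand overlapped a match on the other, and the capitals cover both.

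Either motif, on either strand, was found upstream of 4 of the 5 rule genes with a promoter in the table. It was found for 39 of the 226 genes (17.3%) that were at least 1.5-fold higher in G1/S cells in both libraries and had a promoter, for 5.16% of the 5754 genes at 10 CPM or more and for 2.31% of all 27025 genes in the table. The 294 genes higher in both libraries include 4 rule genes and some that passed 10 CPM only through the G1/S cells. Without the rule genes and with 10 CPM asked of the other cancer cells of both libraries, a match was found for 35 of 202 higher genes (17.3%) and for 290 of all 5715 genes (5.07%). Among the lists, 6 of 20 genes of the E2F, Rb and cyclin list (30.0%), 4 of 13 origin licensing genes (30.8%) and 3 of 12 origin firing genes (25%) held one. So did 3 of 21 chromatin genes (14.3%), 3 of 23 polymerase and clamp genes (13.0%), 2 of 24 repair genes (8.33%) and 1 of 22 nucleotide synthesis genes (4.55%). Outside replication, 4 of 20 ribosome biogenesis genes (20%), 3 of 20 interferon response genes (15%) and 3 of 43 genes of G2 and mitosis (6.98%) held one. The letters TTTGAA, known from the promoters of late cell cycle genes, were found for 14 of 43 genes of G2 and mitosis (32.6%), for 6 of 20 genes of the E2F, Rb and cyclin list (30.0%) and for 4 of 14 matrix genes (28.6%). They were found for 17.7% of the genes higher in G1/S cells in both libraries, for 12.2% of the 5754 genes at 10 CPM or more and for 18.3% of all genes in the table. A match is a stretch of letters, and binding of a factor was not measured.

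Across all genes at 10 CPM or more, the G1/S cells differed from the other cancer cells mainly upwards. In CT 405 of 7214 genes (5.61%) were at least 1.5-fold higher and 128 (1.77%) at least 1.5-fold lower. In KO 340 of 7272 (4.68%) were higher and 85 (1.17%) lower. The libraries shared 294 of the higher genes, which were 72.6% of the CT calls and 86.5% of the KO calls. They shared 69 of the lower genes, 53.9% and 81.2% of the calls. The median gene stood at 0.05 in CT and 0.07 in KO on the log2 scale. A gene could pass 10 CPM through the G1/S cells alone, and then had to be higher in them: 52 genes of CT and 38 of KO did. With 10 CPM asked of the other cancer cells instead, 376 of 7182 genes (5.24%) in CT and 323 of 7249 (4.46%) in KO were higher, and 131 (1.82%) and 87 (1.2%) lower. With the cells scored at 5000 UMIs each, 247 genes were higher and 75 lower in CT and 157 and 33 in KO, and only 855 of the 1411 cells so chosen were among the 1383. The medians of the replication, repair and E2F lists were then nearer to 0, for example 1.23 in CT and 0.93 in KO for origin licensing.

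**Figure D2:**
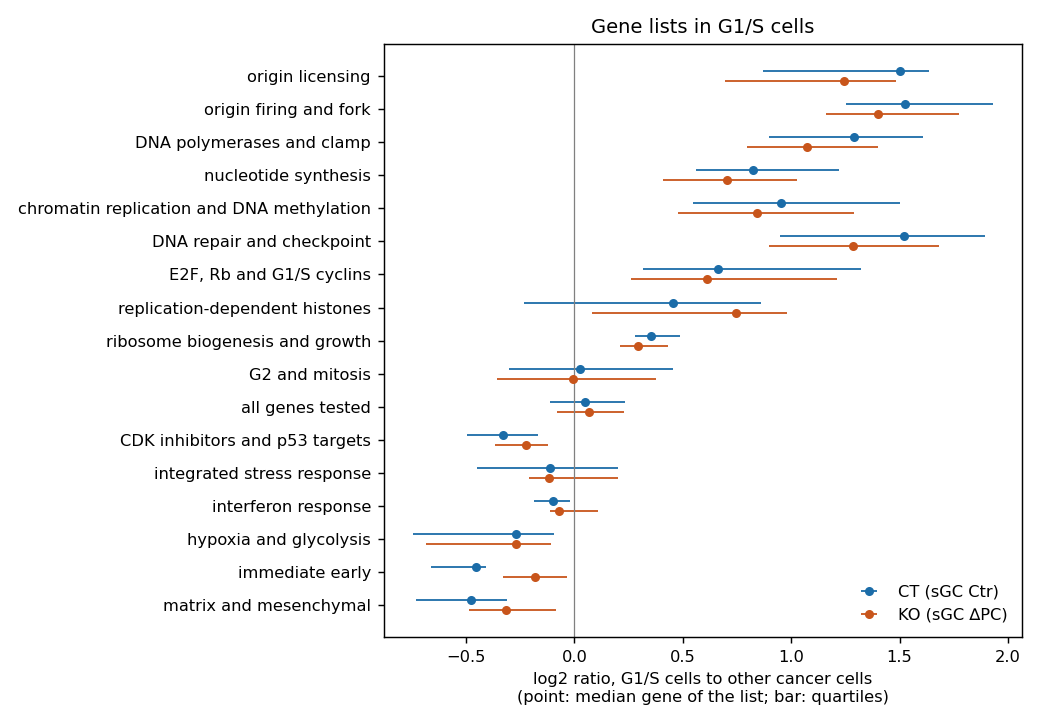
Each row is a gene list, and the horizontal axis is the log2 ratio of G1/S cells to other cancer cells in CT (blue) and KO (orange), with the list's median gene as a point and its quartiles as a bar. The lists of DNA replication and repair lie to the right, from 0.70 to 1.53, and those of hypoxia, immediate early and matrix genes to the left of the row of all genes.

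Of the E2F, Rb and cyclin list, 14 of 23 genes in CT and 14 of 25 in KO were called higher and none lower, with medians of 0.66 and 0.61. Over the alternatives the median ranged from 0.31 to 0.77 in CT and from 0.26 to 0.75 in KO. Ccne2, encoding cyclin E2, was at 65.4 CPM against 9.62 in CT and 61.5 against 11.6 in KO. Its partner Ccne1 stood at 46.0 against 7.80 CPM in CT and 40.3 against 10.0 in KO. In CT both passed 10 CPM only through the G1/S cells; with the filter on the other cells 12 of 21 genes of the list in CT and 13 of 24 in KO were higher. Both cyclins were lower still in the cancer cells in the top 10% of the mitotic sum, where Ccne1 was 4.05 CPM in CT and 5.97 in KO. E2f1 had a log2 ratio of 1.78 in CT and 1.51 in KO.

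The D-type cyclins and their kinases Cdk4 and Cdk6, members of the same list, were all short of 1.5-fold. Ccnd1, encoding cyclin D1, was at 329 CPM against 266 in CT and 326 against 265 in KO. Ccnd3 had ratios of 0.51 in CT and 0.35 in KO, and Ccnd2 of -0.03 and 0.02. Cdk4 had 0.33 and 0.19, Cdk6 0.27 and 0.26, and Cks1b, a CDK-binding subunit, 0.45 and 0.27. Myc, the growth regulator, was level at -0.07 in both. E2f5, the lowest of the list, had ratios of -0.17 and -0.18. In the list of CDK inhibitors and p53 targets 0 of 13 genes in CT and 1 of 13 in KO were above 0, beside 4144 of 7214 and 4486 of 7272 of all genes, with medians of -0.33 and -0.22. Of these 3 in CT and 0 in KO passed 1.5-fold downwards, beside 1.77% and 1.17% of all genes. Cdkn1a, encoding p21 and the most abundant of the list beside Bax, differed little, at -0.09 and -0.07. Btg2, an antiproliferative p53 target, was at 14.3 CPM against 23.4 in CT and 28.2 against 30.9 in KO, and so differed mainly in CT.

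Origin licensing was higher almost throughout. Of its 11 measured genes 9 in CT and 8 in KO were called higher, with medians of 1.5 and 1.24. Mcm3, a helicase subunit, was at 249 CPM against 70.0 in CT and 223 against 72.2 in KO. Mcm7 was at 206 against 62.8 CPM in CT and 214 against 73.4 in KO. Mcm4 had the largest ratio of the list, 1.84 in CT and 1.68 in KO. Gmnn, encoding geminin, which blocks a second round of licensing, had ratios of 1.55 and 1.24. The origin recognition subunits were uneven, with Orc6 at 1.35 and 1.22 and Orc4 at 0.13 and 0.05, the smallest of the list.

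Firing and fork genes had 11 of 12 measured genes, of 17 listed, called higher in each library, with medians of 1.53 and 1.40. Clspn, encoding the checkpoint mediator claspin, was at 77.6 CPM against 13.2 in CT and 71.9 against 15.2 in KO. Mcm10, needed to activate the loaded helicase, was at 41.2 against 7.50 CPM in CT and 39.0 against 8.71 in KO, and so passed 10 CPM only through the G1/S cells. With the filter on the other cells 7 of 8 genes in CT and 9 of 10 in KO were higher. The most abundant of the list were Tipin, a fork protection factor, with ratios of 1.33 and 1.17, and Topbp1, a firing factor, with 1.24 and 1.21. Dtl, part of the ligase that destroys the licensing factor Cdt1 at the fork, had ratios of 1.89 and 1.85. Dbf4, the activator of the firing kinase Cdc7, was the only one short of 1.5-fold, at 0.55 and 0.40, and it was the one whose level in the top 10% of the mitotic sum exceeded that in G1/S cells.

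Polymerase, clamp and loader genes were called higher for 21 of 24 in CT and 20 of 24 in KO, with medians of 1.29 and 1.07. Pcna, the sliding clamp, was at 248 CPM against 71.2 in CT and 261 against 85.8 in KO. Lig1, which joins the fragments of the lagging strand, was at 177 against 54.1 CPM in CT and 177 against 59.6 in KO. Atad5, which unloads the clamp, had ratios of 2.06 and 1.85, but in both libraries passed 10 CPM only through the G1/S cells. Without it 20 of 23 genes in CT and 19 of 23 in KO were higher, with medians of 1.29 and 1.05. Rfc1, the large subunit of the clamp loader, had 0.95 and 0.97. Pold4, the small subunit of polymerase delta, went the other way, at -0.43 and -0.41.

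Nucleotide synthesis genes were higher to differing degrees. Of the list 18 of 24 genes in CT and 14 of 24 in KO were called higher, with medians of 0.82 and 0.70. Rrm2, the small subunit of ribonucleotide reductase, was at 103 CPM against 17.2 in CT and 104 against 24.5 in KO. The abundant Dut, which removes dUTP, had 0.89 and 0.73, and Dctpp1, which cleans the nucleotide pool, 0.95 and 0.76. The purine enzymes Paics, at 0.45 and 0.41, Atic, at 0.40 and 0.37, and Impdh2, at 0.28 and 0.20, were short of the 1.5-fold limit. Rrm2b, the p53-dependent small subunit, was at -0.18 and -0.03.

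Of the chromatin replication and DNA methylation genes 16 of 22 in CT and 14 of 22 in KO were called higher, with medians of 0.96 and 0.84. Their summed level, 5419 CPM in CT and 5324 in KO, was like that in the top 10% of the mitotic sum, 5503 and 5318 CPM. With the filter on the other cells, which leaves out Chaf1b, 15 of 21 and 13 of 21 were higher, with medians of 0.80 and 0.74. Chaf1b, a subunit of the CAF-1 chaperone that places histones on new DNA, was at 39.8 CPM against 6.36 in CT and 40.7 against 7.94 in KO, below 10 CPM in the other cells of both. Hells, a chromatin remodeller that aids DNA methylation, was at 217 against 54.9 CPM in CT and 219 against 62.1 in KO. Atad2, an E2F coactivator, had ratios of 1.90 and 1.71. The abundant H2afz, encoding the variant histone H2A.Z, had 0.80 and 0.63, and Hmgb1, a chromatin protein, had 0.48 and 0.41. Zbtb38, a reader of methylated DNA, was at -0.16 and -0.11.

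Of 33 listed repair and checkpoint genes 15 were measured and 13 of these called higher in each library, with medians of 1.52 and 1.28. With the filter on the other cells 9 of 11 in CT and 11 of 13 in KO were higher, with medians of 1.06 and 1.14. Rad51ap1, which acts in recombination repair, was at 58.0 CPM against 12.1 in CT and 52.3 against 13.4 in KO. Brca1, of homologous recombination, was at 42.6 against 9.74 CPM in CT and 42.8 against 11.4 in KO. The mismatch repair gene Msh6 had ratios of 1.52 and 1.32. The abundant base excision enzymes were less different, with Parp1 at 0.88 and 0.90 and Apex1 at 0.59 and 0.51. Of the remaining genes that the ranking outside the rule brought up, Tcf19 had ratios of 2.08 and 1.87, Slfn9 of 2.56 and 2.29, and Ncapg2, a condensin II subunit, of 1.96 and 1.84. Slfn9 and Brca1 passed 10 CPM in CT only through the G1/S cells.

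Mitotic genes were split, and the median of the G2 and mitosis list was 0.03 in CT and -0.01 in KO. Of its 46 measured genes 5 in CT and 4 in KO were called higher, and 8 in each were called lower. Among all genes the higher share was 5.61% in CT and 4.68% in KO, and the lower share 1.77% and 1.17%. Top2a, the topoisomerase that untangles replicated DNA, was at 390 CPM against 208 in CT and 422 against 234 in KO. Cdk1 had ratios of 0.68 and 0.45, Smc4, a condensin subunit, 0.67 and 0.60, and the proliferation marker Mki67 0.46 and 0.57. Ube2c, a ubiquitin-conjugating enzyme of mitotic exit, was the lowest of all genes outside the rule by the library nearer to 0, at 59.5 CPM against 163 in CT and 64.4 against 179 in KO. Against the top 10% of the mitotic sum, the log2 ratio of Ube2c was -3.42 in CT and that of Top2a was -0.61. The rule itself removed the cells highest in mitotic genes, and 11.9% of the members had no UMI of the 6 mitotic genes.

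The lowest genes of the ranking outside the rule had varied roles. Kdm5b, a histone H3K4 demethylase, was at 15.7 CPM against 47.0 in CT and 18.6 against 43.9 in KO. Cdkn3, a phosphatase acting on CDKs, had ratios of -1.21 and -1.33, and Ccng2, a cyclin linked to cell cycle arrest, -1.25 and -1.16. Cdc42ep2, an effector of the GTPase Cdc42, had -1.36 and -1.20. Hspb1, a small heat shock protein, had -1.01 and -1.24, and Lrrc17 -0.99 and -0.97. Hist3h2a was at 11.04 CPM against 30.2 in CT and 10.6 against 29.0 in KO, unlike most histone genes.

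Of the hypoxia and glycolysis list, 7 of 22 genes were called lower and none higher in each library, with a median of -0.27 in both. Among all genes 1.77% in CT and 1.17% in KO were lower. The summed level of the list was 5613 CPM in G1/S cells and 5827 in the others of CT, and 5610 and 6117 CPM in KO. In the top 10% of the mitotic sum it was lower still, at 5396 CPM in CT and 5384 in KO. A low sum was therefore not particular to G1/S cells. Ndrg1, a hypoxia-induced gene, was at 36.5 CPM against 73.4 in CT and 37.4 against 74.1 in KO. Ankrd37, another, had ratios of -1.10 and -1.01, and Adm, encoding adrenomedullin, -0.96 and -1.22. These genes were also below the other cancer cells in the top 10% of the mitotic sum. There Ndrg1 was at 38.0 CPM in CT and 38.5 in KO, Ankrd37 at 17.1 and 15.3, and Adm at 92.6 and 81.1. The most abundant members, Mif at 0.11 and -0.02 and Ldha at 0.08 and -0.02, were near 0. Eno1, with 0.15 and 0.12, was the highest of the list.

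Of the matrix and mesenchymal list 6 of 18 in CT and 4 of 19 in KO were called lower and none higher. The medians of the list were -0.48 and -0.32. Among all genes 1.77% in CT and 1.17% in KO were lower. The summed level of the list was 2434 CPM in G1/S cells and 3576 in the others of CT, and 2790 and 3716 CPM in KO. In the top 10% of the mitotic sum it was lower still, at 2368 CPM in CT and 2560 in KO. A low sum was therefore not particular to G1/S cells. Fn1, encoding fibronectin, was at 534 CPM against 899 in CT and 616 against 887 in KO. Dcn, encoding decorin, was at 165 against 363 CPM in CT and 201 against 379 in KO. Col3a1 had ratios of -0.48 and -0.32. The ratios of the fibroblast collagens Col1a1 and Col1a2, -1.64 and -2.09 in CT and -0.97 and -0.96 in KO, rest on low levels, at 364 and 260 UMIs in all in the CT members. The summed fibroblast markers moved alongside, at 274 CPM in the G1/S cells and 367 in the others of CT and 311 and 367 in KO, with Gsn the most abundant at 149 and 158 CPM; their part in the matrix values was not tested.

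Of the 25 ribosome biogenesis and growth genes 2 in CT and 1 in KO were called higher (8% and 4%), near the 5.61% and 4.68% of all genes. In CT 25 and in KO 24 were above 0, beside 4144 of 7214 and 4486 of 7272 of all genes, with medians of 0.35 and 0.29. Nolc1, a nucleolar protein, had the largest ratio, 0.79 and 0.70. Npm1, the abundant nucleolar chaperone, was at 2638 CPM against 2260 in CT and 2552 against 2222 in KO. Eif4a1, a translation helicase, was the smallest, at 0.08 and -0.05.

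Along the whole range of the G1/S sum, the lists did not move in step. Cancer cells of both libraries were ranked by the sum and divided into 10 classes of like size, with the lowest 2 joined because 1534 cells had no UMI of the 6 genes. Class 10 is the top 10%, with its mitotic cells left in. Ccne2 went from 2.12 CPM in the lowest class to 64.9 in class 10 of CT and from 3.94 to 60.8 in KO. Rrm2 went from 2.61 to 102 CPM and from 6.77 to 104. For both, the steepest part was the last step.

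G2 and mitosis genes peaked earlier in the range. Their summed level climbed from 846 CPM to 3629 in class 7 of CT and was 2636 in class 10. In KO it climbed from 1194 to 3342 in class 7 and was 2709 in class 10. The share of cells in the top 10% of the mitotic sum was 22.7% in class 7 of CT and 1.89% in class 10. In KO it was highest in class 6, at 16.0%, and was 13.2% in class 7, 3.30% in class 10 and 7.33% in the lowest class. The median depth of the classes differed, from 41602 to 63412 UMIs in CT and from 11663 to 36685 in KO, and its part in these courses was not tested. Hypoxia genes summed to between 5501 and 6388 CPM in every class of both libraries.

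**Figure D3:**
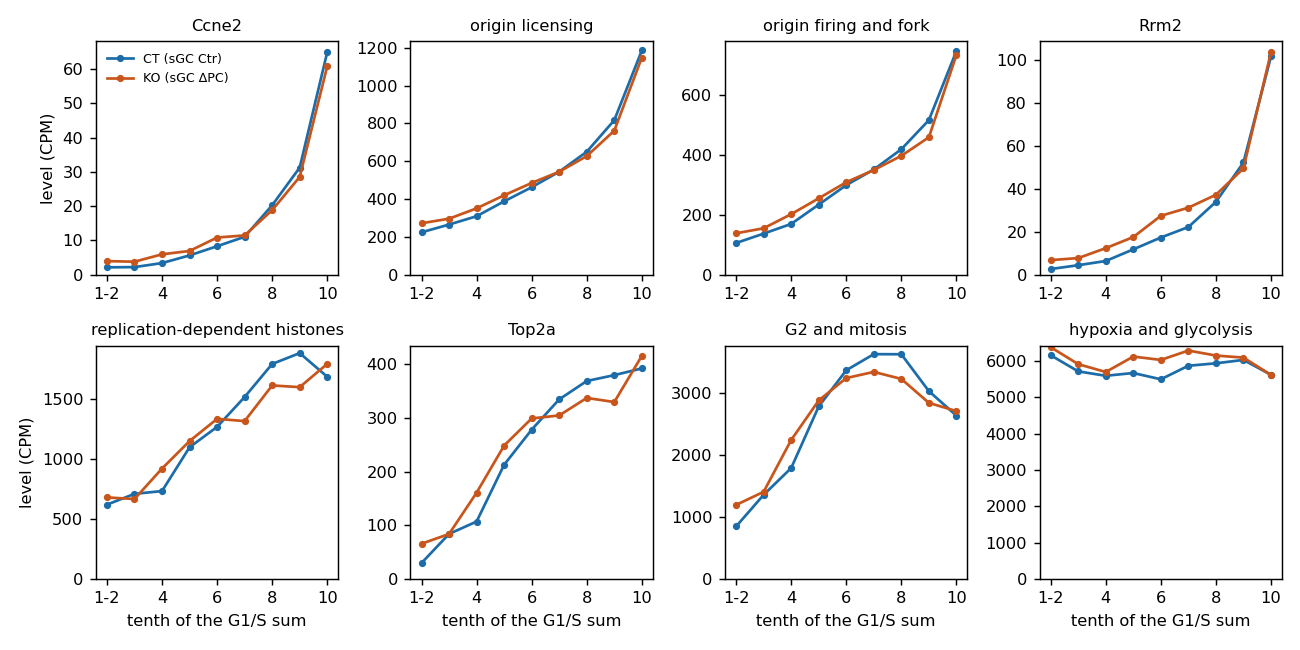
Each panel gives the level in CPM of a gene or the summed level of a list in CT (blue) and KO (orange) across 10 classes of the G1/S sum, from the lowest 2 joined to the top 10%. Ccne2, Rrm2 and the origin lists climb to the last step, whereas G2 and mitosis genes peak in class 7 and hypoxia genes are flat.

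The G1/S cells were not uniform among themselves. Replication-dependent histone mRNAs, which accumulate in S phase and mostly lack a poly(A) tail, are only partly seen by a poly(A) library, so cells of 40000 UMIs and over were ranked by their histone CPM and split into 3 groups. The histone-low group (193 cells in CT, 96 in KO) held 266 and 253 CPM of histone RNA, and the histone-high group (193 and 97 cells) 3767 and 4270 CPM. The 6 rule genes had nearly the same sum in both groups, at 655 and 626 CPM in CT and 643 and 625 in KO. Every cell had to pass the limit on this sum, which held the groups to like levels, so the near equality is no result.

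The groups differed in which genes made up the program. Ung was at 61.5 CPM in the histone-low cells and 24.7 in the histone-high cells of CT, and at 55.9 and 17.8 in KO, log2 ratios of -1.32 (-1.51 to -1.13) and -1.65 (-1.95 to -1.37). Ccnd1, with -0.30 and -0.38, and Dtl, with -0.39 and -0.41, were also lower where histones were high. Mcm6 was level, at -0.00 (-0.08 to 0.08) and -0.05 (-0.16 to 0.06), as was Mcm5. Uhrf1 was slightly higher, at 0.15 and 0.20. Ung, Mcm5, Mcm6 and Uhrf1 were among the genes that chose the cells. With the limit on their sum their ratios are tied to each other, and they are given as a description only.

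Some single genes linked to S phase or G2 were higher where histones were high, and others were not. Rrm2 was at 69.2 CPM in histone-low and 151 in histone-high cells of CT, and at 59.3 and 152 in KO. Tyms, the thymidylate synthase, had log2 ratios of 1.03 and 0.89. Mki67 was at 49.2 against 226 CPM in CT and 35.0 against 303 in KO, and Ccna2, encoding the S and G2 cyclin A2, at 18.7 against 67.3 and 15.3 against 70.1. Hells was near level, at -0.06 and 0.09. Origin licensing as a list was nearly level, at 0.07 and 0.08, as was the E2F, Rb and cyclin list, at 0.11 and 0.08. Other replication lists were modestly higher, origin firing by 0.31 in both and polymerases by 0.33 and 0.39. Nucleotide synthesis was higher by 0.24 and 0.27 and chromatin genes by 0.41 and 0.48. G2 and mitosis genes were higher by 1.32 and 1.58. These list values are ratios of summed levels, not medians. The cyclin E genes were not highest in the histone-low cells: Ccne1 was higher with histones by 0.52 and 0.53, and Ccne2 by 0.58 and 0.69. The split was made on one measure of the same cells, after the counts were read, and marks a range rather than cell types.

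**Figure D4:**
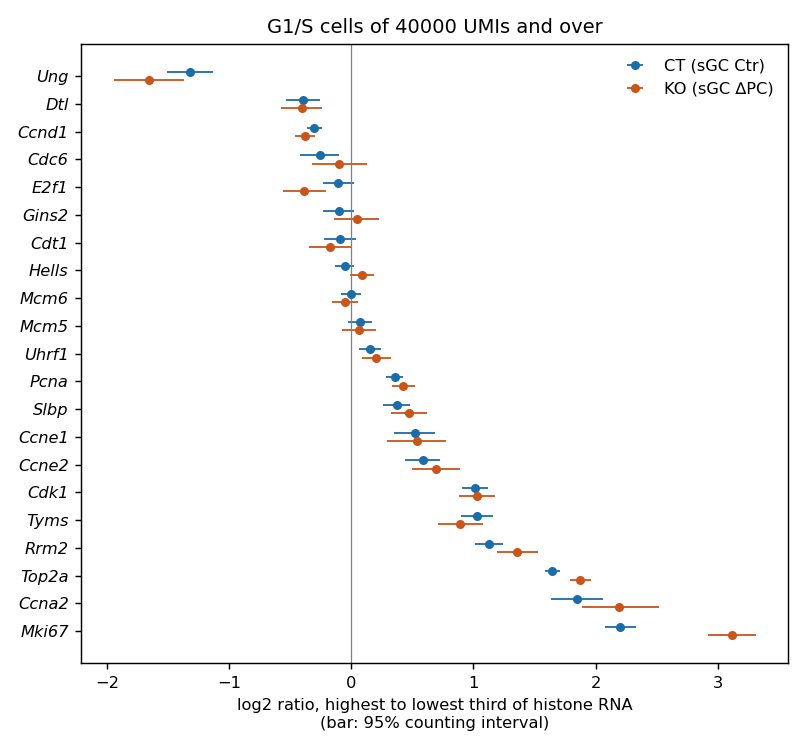
The horizontal axis is the log2 ratio of histone-high to histone-low cells among G1/S cells of 40000 UMIs and over, for single genes in CT (blue) and KO (orange), with 95% counting intervals. Ung lies farthest to the left at -1.32 and -1.65, Mcm5 and Mcm6 near 0, and Mki67 farthest to the right at 2.20 and 3.11. The sum of Ung, Cdc6, Uhrf1, Mcm5, Mcm6 and Gins2 chose the cells, so their ratios are tied to each other.

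Histones as a list were higher in G1/S cells than in the other cancer cells. Of 68 listed genes 15 in CT and 16 in KO were measured, 7 and 9 were called higher and 3 and 2 lower, with medians of 0.45 and 0.74. Among all genes 5.61% and 4.68% were higher and 1.77% and 1.17% lower. Hist1h1b, a linker histone, was at 291 CPM against 116 in CT and 363 against 129 in KO. Hist1h2ap was at 463 against 229 CPM in CT and 372 against 208 in KO. Hist1h2bc was on the other side, at 48.4 against 116 CPM and 52.6 against 100. Near-identical copies in the histone clusters can share reads, so single members are uncertain.

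KO was then set against CT within the G1/S cells, to ask whether loss of sGC in the host's pericytes went along with another program in cycling cancer cells. Of 7370 genes 59 (0.801%) were at least 1.5-fold higher in KO and 2 (0.0271%), Tmem80 and Cx3cr1, lower. In the other cancer cells 52 of the same genes (0.706%) were higher and 0 (0%) lower. Among cells of 40000 UMIs and over, 59 (0.801%) were higher and 4 (0.0543%) lower in G1/S cells. The counts depended on the processing: 93 were higher and 11 lower with a mitochondrial share under 5%, 110 and 14 with cancer-cell genes at least 2000 CPM, and 146 and 160 with all cells thinned to 5000 UMIs.

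Of the 6 rule genes none passed 1.5-fold, with ratios from -0.23 for Ung to 0.07 for Mcm6. None of the 11 licensing, 16 firing, 26 polymerase, 25 nucleotide, 23 chromatin and 25 repair genes passed it either. The medians of these lists lay between -0.07 and -0.01, beside 0.01 for all genes. In the other cancer cells the same lists had medians between 0.09 and 0.17, and among cells of 40000 UMIs and over the medians in G1/S cells lay between 0.01 and 0.09. The limit on the pooled sum holds the replication program of the members to a like level in both libraries, so this comparison cannot show a difference in its strength.

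**Figure D5:**
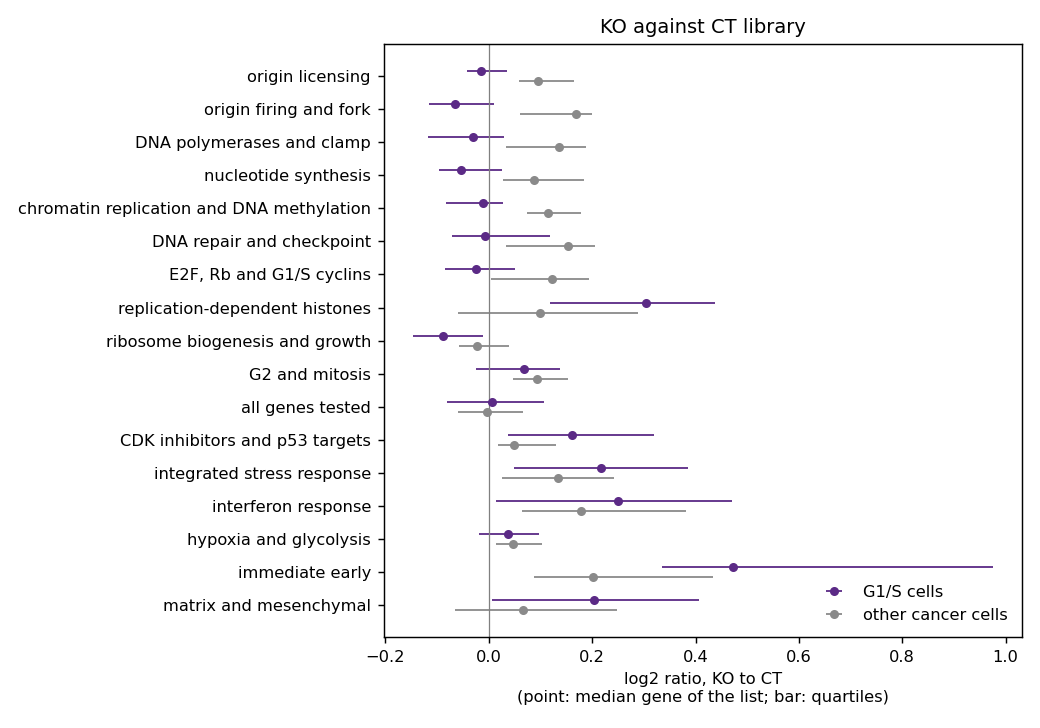
Each row is a gene list, and the horizontal axis is the log2 ratio of KO to CT in G1/S cells (purple) and in other cancer cells (grey), with the list's median gene as a point and its quartiles as a bar. The replication lists lie near 0 in G1/S cells, and the immediate early list lies farthest to the right at 0.47.

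Of the 16 gene programs in the plot of KO against CT, immediate early genes had the largest median. All 16 were above 0 in KO in the G1/S cells, beside 3812 of 7370 of all genes. There 6 of 16 passed 1.5-fold upwards, against 4 of 16 in the other cancer cells, with medians of 0.47 and 0.20. Among all genes 0.801% did so in G1/S cells and 0.706% in the other cancer cells. Fosb, an AP-1 subunit, was at 42.3 CPM in CT and 121 in KO, a log2 ratio of 1.51 (1.43 to 1.60). Fos was at 41.7 CPM in CT and 83.8 in KO, with 1.01 (0.92 to 1.10). Jun, the most abundant of the list, was at 536 and 737 CPM, with 0.46. Egr1 was at 24.9 and 48.7 CPM, with 0.97. In cells of 40000 UMIs and over the median was 0.54. There the median mitochondrial share was 4.63% in CT and 5.78% in KO, and with cells under 5% the median of the list was 0.35; the part of this quality measure in the difference was not tested. These genes are also induced by tissue dissociation, and with 1 library for each genotype the handling of a library and its genotype cannot be told apart. Against the other cancer cells, 5 of 15 immediate early genes in CT and 1 of 16 in KO were called lower in G1/S cells and none higher. Among all genes 1.77% in CT and 1.17% in KO were lower. The medians of the list were -0.45 and -0.18, and 0 of 15 and 4 of 16 were above 0. The summed level of the list was 1928 CPM in G1/S cells and 2697 in the others of CT, and 2650 and 3097 CPM in KO. In the top 10% of the mitotic sum it was lower still, at 1842 CPM in CT and 2416 in KO.

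Among genes at 50 CPM or more, Lars2, Gm42418, Fosb and AY036118 had the largest ratios in KO. Gm42418 and AY036118, which overlap ribosomal RNA repeats, were at 2912 and 198 CPM in CT and 8884 and 551 CPM in KO. Lars2, encoding the mitochondrial leucyl-tRNA synthetase, was at 86.8 CPM in CT and 267 in KO. Gm42418, AY036118 and Lars2 differed by a like amount in the other cancer cells, at 1.58, 1.54 and 1.63 against 1.61, 1.47 and 1.62 in G1/S cells. Their ratios were smaller in cells of 40000 UMIs and over, at 1.07, 0.85 and 1.12, and so moved with depth. Over all alternatives they ranged from 1.07 to 2.43 for Gm42418, from 0.85 to 2.37 for AY036118 and from 1.12 to 2.39 for Lars2. Below 50 CPM, S100a9, a granulocyte gene, was at 11.9 CPM in CT and 39.9 in KO (1.74) and the collagen Col1a2 at 6.50 and 21.1 CPM (1.70). The mitochondrial mt-Atp8 had a ratio of 0.73 in G1/S cells and 0.71 in the others.

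Some of the higher genes belonged to other cell types. Lyz2, a macrophage and granulocyte lysozyme, was at 76.3 CPM in CT and 143 in KO, with a ratio of 0.91 that ranged from 0.41 in cells of 40000 UMIs and over to 1.58 by the mean of per-cell CPM. The 12 macrophage markers summed to 187 CPM in CT and 303 in KO in G1/S cells, and to 190 and 408 in the others. In the G1/S cells of 40000 UMIs and over they summed to 187 and 231 CPM, and in those of 5000 to 10000 UMIs of KO to 559 CPM. Granulocyte markers, led by S100a9, stood at 21.7 and 68.7 CPM in G1/S cells and at 24.2 and 44.1 CPM in the others. In KO both measured granulocyte markers, S100a8 and S100a9, were thus more than 1.5-fold higher in G1/S cells than in the other cancer cells. T cell markers were at 0.52 and 2.33 CPM. Pericyte markers were at 9.35 and 12.2 CPM, endothelial markers at 43.3 and 47.6 CPM, and erythrocyte markers at 11.7 and 1.70 CPM, led by Hbb-bs. Of the listed markers only Alas2, of erythrocytes, in both libraries and Dpep1, of fibroblasts, in CT had no UMI. The part of these transcripts, whether free RNA or joined cells, in the other values was not tested.

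Of the remaining genes that were highest in KO, Mmp3, a matrix metalloproteinase, was at 90.4 CPM in CT and 157 in KO, a ratio of 0.79 that ranged over the alternatives from 0.70 to 2.07, the latter with cancer-cell genes at least 2000 CPM. In the other cancer cells its ratio was larger, at 1.11. Neat1, a nuclear long non-coding RNA, was at 446 and 710 CPM, with ratios of 0.67 in G1/S cells and 0.46 in the others. Slc5a3, the myo-inositol transporter, was at 96.2 and 153 CPM, with 0.67 and 0.37. The ratio in G1/S cells ranged from 0.28 to 0.82 for Neat1 and from 0.32 to 0.79 for Slc5a3, with the lowest values from cells thinned to 5000 UMIs and by the mean of per-cell CPM, in that order, and the highest in cells of 40000 UMIs and over.

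The pair of genes past 1.5-fold on the lower side were below the level used for naming, and were named after their values were seen. Cx3cr1, the fractalkine receptor, was at 45.1 CPM in CT and 13.3 in KO in G1/S cells, and at 27.5 and 21.5 in the others. It was found in 25.6% of the G1/S cells of CT, where 39.9% of its UMIs came from 10 cells, and in 16.6% of those of KO. Tmem80 was at 36.3 and 20.9 CPM, with 32.5% of the CT UMIs in 10 cells. A few cells thus carried much of both values.

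The 10 genes lowest in KO at 50 CPM or more were all short of 1.5-fold. Rgcc, a regulator of the cell cycle, was at 92.1 CPM in CT and 64.7 in KO, a ratio of -0.51 (-0.59 to -0.43). Ptn, encoding the growth factor pleiotrophin, was at 94.2 and 69.1 CPM, with -0.45 in G1/S cells and -0.51 in the others, but 0.16 in G1/S cells with cancer-cell genes at least 2000 CPM. Igfbp6, which binds insulin-like growth factors, was at 130 and 102 CPM, with -0.35 and -0.41. Gchfr, a regulator of tetrahydrobiopterin synthesis, was at 103 and 76.9 CPM, with -0.42 and -0.23. Pdrg1, Rac3, Arhgdig, Tmem238, Hist1h2ap and Guk1 had ratios from -0.36 to -0.31. Each of these 10 was lower in KO in the other cancer cells as well, by less except for Ptn and Igfbp6.

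Histone genes had the next largest median, 0.30 in G1/S cells and 0.10 in the others, with 18 of 21 genes above 0 and 2 of 21 past 1.5-fold in G1/S cells. Among all genes 3812 of 7370 were above 0 and 0.801% past 1.5-fold upwards. Hist1h1b was at 291 CPM in CT and 363 in KO, and Hist1h1e at 138 and 189 CPM. Hist1h2ap, the most abundant, went the other way, at 463 and 372 CPM. In cells of 40000 UMIs and over the median was 0.38.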

How the data were processed

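Single-cell RNA was measured in 1 library for each genotype, from 3 pooled LLC tumors. The UMI counts for each gene and barcode were deposited by the authors, who per the labels used Cell Ranger 6.1.1 and mm10; they were used as they stand. The authors' own cell filters and cluster names were left aside. Values were computed in Python 3.11.15, numpy 2.4.6, scipy 1.17.1, pandas 2.3.3 and matplotlib 3.10.9.

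Cells and members were chosen by the limits given in the report, with both percentiles taken over all pooled cancer cells. UMIs were summed over cells, divided by the summed total (CPM), and compared as log2 ratios with exact conditional intervals and no pseudocount; shares have Clopper-Pearson intervals (95%). Genes needed 10 CPM over the library's cancer cells, or as a mean of both libraries' G1/S cells for KO against CT, and a call was 1.5-fold in size, not a test. Ratios were tested on simulated counts, where 95.1% of the intervals held the true value. Those counts had no spread between cells and no choice of cells by expression, so only the computation was checked. No doublet caller was run: the immune limit removes some mixed barcodes, and an alternative leaves out the deepest 5% of cells. Shares of cells with a UMI were thinned to 5000 UMIs, beside granulocytes (at least 500 UMIs, under 10% mitochondrial, S100a8 and S100a9 at least 5000 CPM, cancer-cell genes under 1000 CPM).

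The members and gene lists were chosen with earlier results of these data known. Named were the rule genes, Gucy1b1, the most abundant of each list with its largest and smallest ratio, the 15 highest and 10 lowest genes outside the rule (by the library nearer to 0), and the 10 highest and 10 lowest in KO at 50 CPM or more. E2f1, Ccnd3, Cdk6, Egr1, Hist1h2bc, Gucy1a2, S100a8, S100a9, Col1a2, Tmem80, Cx3cr1 and the genes compared between histone-low and histone-high cells were named after their values were seen, and that split was also added then. 1 gene that the naming rule picked is not reported here. Promoters were matched by symbol to the RefSeq table. Precision depends on depth: 40021156 and 26998555 UMIs in the G1/S cells of CT and KO.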

Additional observations from a re-analysis of the deposited data

How the results depend on the processing

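The results were recomputed under 17 alternatives, of which the cells of at least 40000 UMIs, the 10 CPM asked of the other cancer cells alone and the removal of barcodes held by both libraries were chosen after seeing the data, as was a motif count without the rule genes. The shares moved beyond their intervals with the top 5% kept (5.36% CT, 4.68% KO), with the top 20% (17.7%, 20.1%) and, in KO, with mitotic cells removed first (8.60%) or a mitochondrial share under 5% (8.57%). Genes called in G1/S cells against other cancer cells moved by over 1.5 times as follows. Scored at 5000 UMIs per cell they were 247 higher and 75 lower in CT and 157 and 33 in KO; only 855 of the 1411 cells so chosen were members. With at least 50 CPM they were 91 and 28 in CT and 69 and 24 in KO, with 2-fold for a call 125 and 26 in CT and 111 and 14 in KO, with the top 20% 75 lower in CT and 222 higher and 37 lower in KO, and with the top 5% 135 lower in KO. In KO against CT, the higher and lower counts were 93 and 11 with a mitochondrial share under 5%, 110 and 14 with cancer-cell genes at least 2000 CPM, 12 and 0 at 50 CPM, 17 and 1 at 2-fold, and 146 and 160 with all cells thinned to 5000 UMIs, where counts are few. The lower count alone was 6 with the top 5%, 1 with the top 20%, 4 with at least 10000 UMIs, with immune genes under 100 CPM or in cells of at least 40000 UMIs, and 13 by the mean of per-cell CPM. The cause of these shifts was not tested beyond the fewer genes, cells or counts of each alternative. No gene ratio or list median past 1.5-fold changed sign. Some smaller medians did, among them those that follow. The G2 and mitosis median in G1/S cells against the others ranged from -0.25 to 0.19 in CT and from -0.25 to 0.10 in KO, and in KO against CT origin licensing ranged from -0.19 to 0.07 and DNA repair from -0.31 to 0.09. Ptn in KO against CT was at 0.16 with cancer-cell genes at least 2000 CPM. No library could be left out with 1 for each genotype. No paired analysis was possible because each genotype has 1 library.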

Other observations

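Genes of the nitric oxide and cGMP pathway were nearly absent from the G1/S cells, apart from Prkg2, the type II cGMP-dependent kinase. Prkg2 was at 138 CPM in the G1/S cells and 124 in the other cancer cells of CT, and at 149 and 133 CPM in KO. Of the 10 genes of the list it was the only one at 10 CPM or more; Gucy1a2 had no UMI in the G1/S cells of either library, and Nos3, the endothelial synthase, had 58 UMIs in CT and 36 in KO.

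Of the integrated stress response list, 2 of 13 genes in CT and 1 of 13 in KO were called higher in the G1/S cells. In CT 3 of 13 and in KO 1 of 13 were called lower. Of all genes 5.61% and 4.68% were higher and 1.77% and 1.17% lower. Phgdh and Psat1, of serine synthesis, were at 227 against 146 CPM and 75.3 against 45.3 CPM in CT. In KO they were at 235 against 158 and 82.2 against 53.3 CPM, where Phgdh was short of 1.5-fold. Nupr1, a stress-induced chromatin factor, was at 21.8 against 43.0 CPM in CT and 29.7 against 45.6 in KO. The median of the list was -0.11 in CT and -0.12 in KO. Interferon response genes had medians of -0.10 and -0.07 against the other cancer cells, and none of 9 in CT or 12 in KO passed 1.5-fold. In KO against CT the median was 0.25 in G1/S cells and 0.18 in the others, with B2m, the light chain of MHC class I, at 273 CPM in CT and 384 in KO.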
